A study of Mus musculus with 6 samples.

Results

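The ATP-binding cassette (ABC) transporters are the protein family behind the phenotype by which cardiac side population (SP) cells are sorted. Their members were taken as all genes whose symbol is Abc followed by a subfamily letter from a to g and a number. This gave 50 of the 50600 genes in the count table, all protein-coding, with 16 in subfamily A, 10 in B, 10 in C, 4 in D, 1 in E, 3 in F and 6 in G. RNA of sorted cardiac SP cells was sequenced in 6 libraries, 3 per group, and every library pooled the cells of 4 mice aged 8 to 12 weeks. The wt mice were C57BL/6NRj, and the others carried the C57BL/6Flt3Ltml/mx allele on a C57BL/6N background, called flt3L-/- here, which is meant to remove the ligand of the receptor tyrosine kinase Flt3 in the whole animal. No treatment was given. On each of 3 sorting dates, 2 in 2016 and 1 in 2017, 1 library of each group was made, and such libraries are called a pair and numbered 1 to 3 by date.

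ABC proteins bind and hydrolyse ATP in a conserved cassette, and most use that energy to move lipids, peptides, drugs or metabolites across a membrane. The efflux pumps among them carry the dye Hoechst out of the cell, so that cells with strong efflux stay dim and form the side population in flow cytometry. Abcg2, the breast cancer resistance protein, and Abcb1a and Abcb1b, which in the mouse share the role of human P-glycoprotein, are the pumps best known for this. Other members handle cholesterol, peroxisomal fatty acids or mitochondrial haem and iron, and subfamilies E and F have no membrane domain and act on ribosomes. The sort selects on efflux activity, so the presence of pump transcripts is a check of the cells and not a finding.

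Flt3l, the gene targeted in the mutant, was at 8.67, 10.8 and 12.1 CPM, counts scaled to libraries of equal size, in the wt libraries of pairs 1 to 3 and at 13.6, 12.4 and 14.4 CPM in those labelled flt3L-/-. The label was therefore not matched by a lower count of the gene in any pair. Of its exon bases, 22.1% are shared with the overlapping gene Gm45713, and where the mutation lies relative to the counted reads was not analysed here, so directions below refer to the libraries labelled flt3L-/-. Total counts ran from 24370913 to 31145519 per library, and 3 counts, taken as the detection floor, equal 0.109 to 0.127 CPM. Of the surface genes used in the study, Ly6a, which encodes Sca1, was at 523 CPM or more in every library and Cd34 at 926 CPM or more. Pecam1 was at 873 CPM or more. It encodes CD31, whose absence marks a fraction of the SP in the study, and it is counted here among the endothelial markers. The libraries differed in the levels of cell type markers. The summed level of 8 fibroblast markers was 17996, 11070 and 7566 CPM in wt and 7724, 11587 and 3624 CPM in those labelled flt3L-/-. The sum of 10 endothelial markers stayed between 7431 and 9493 CPM, that of 9 macrophage and monocyte markers ran from 140 to 2369 CPM, and that of 9 pericyte and smooth muscle markers from 264 to 754 CPM. In bulk RNA, fewer cells of a type and less RNA per cell cannot be told apart.

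All 3 dye efflux pumps were expressed in every library, and none differed between the groups by more than the spread of the pairs. Both groups were sorted on dye efflux, so these levels compare cells already selected for it. They do not address how many cells of a heart belonged to the side population. Abcg2 (chr6:58584523-58695676, plus strand, GRCm38) was at 147, 204 and 196 CPM in wt and at 218, 171 and 274 CPM in those labelled flt3L-/-. Its level was higher in pairs 1 and 3 and lower in pair 2, and the groups overlapped. The log2 fold change, always given as the libraries labelled flt3L-/- over wt, was 0.27 ± 0.21 (SE, 3 pairs, 95% confidence interval -0.28 to 0.81, adjusted p = 0.973, edgeR's quasi-likelihood test with Benjamini-Hochberg adjustment). Abcb1a (chr5:8660077-8748575) was at 121, 153 and 156 CPM in wt and at 140, 130 and 156 CPM in those labelled flt3L-/-. These values overlapped, and the difference was -0.01 ± 0.14 on the log2 scale, with an interval from -0.38 to 0.36. Abcb1b (chr5:8798147-8866315), its neighbour on the same strand, was at 47.6, 63.7 and 61.5 CPM in wt and at 54.2, 52.1 and 46.5 CPM in those labelled flt3L-/-. Again the groups overlapped, with a log2 difference of -0.17 ± 0.17 and an interval from -0.61 to 0.27. Differences inside these intervals were not resolved with 3 pairs. Leaving out pair 2 moved the log2 difference of Abcg2 to 0.51, and the lowest value with a pair left out was 0.11.

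The genes for the P-glycoprotein pair lie side by side on chromosome 5, 49571 bases apart, with Abcb4, a phosphatidylcholine floppase of liver, 27401 bases further on. Of all 81-base windows in the annotated transcripts of Abcb1a, 16.2% also occur in another gene, most often Abcb1b, and for Abcb1b the share is 8.41%, so part of the reads of either could be counted on the other. None of the windows of Abcg2 was shared. Abcb1a supplied 71.8%, 70.6% and 71.7% of the reads counted on both genes in wt, and 72.0%, 71.3% and 77.0% in the libraries labelled flt3L-/-. The last value stood above the rest, with a Wilson 95% interval from 75.9% to 78.2% that covers counting error only. Set against endothelial markers, Abcb1a was at 16.1, 16.6 and 18.0 reads per 1000 marker counts in wt and at 14.7, 17.4 and 17.4 in the libraries labelled flt3L-/-. For Abcg2 this ratio was 19.5, 22.2 and 22.6 in wt and 22.9, 22.9 and 30.5 in the libraries labelled flt3L-/-. It was higher in each pair and the groups did not overlap, but the highest wt value and the lowest of the others nearly touched. How often other genes separate on such a ratio was not computed. Against fibroblast markers the spread was wide, from 8.15 to 75.6 for Abcg2 and from 6.73 to 43.1 for Abcb1a. The ratios were computed after the levels had been seen.

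Levels of different genes were compared as CPM per kb of annotated exon, because long transcripts collect more reads. On that scale the ATPases of the ribosome and the efflux pumps Abcb1a and Abcg2 made up most of the top of the family, together with 1 lipid transporter. Abcf2, a cytosolic ABC protein of subfamily F, was first with a mean of 43.4 CPM per kb over the 6 libraries, above 92.2% of all genes tested. Abca8a, a lipid transporter of subfamily A, followed with 30.3 CPM per kb, then Abcb1a with 26.0 and Abcg2 with 24.7 CPM per kb. Abcb1a lay above 85.8%, Abcg2 above 85.1% and Abcb1b above 55.9% of all genes tested. The order of Abcf2, Abca8a, Abcb1a and Abcg2 is not firm, since the values of Abca8a in single libraries ran from 7.40 to 45.7 CPM per kb. In the wt libraries of pairs 1 and 2 Abca8a, with 43.7 and 45.7 CPM per kb, stood above Abcf2, with 37.4 and 40.9. Next came Abcf1 with 23.02, Abce1 with 21.8 and Abcf3 with 20.1 CPM per kb, all closer to each other and to Abcg2 than the spread of Abcg2 over the libraries. The organic anion transporters Abcc4 and Abcc5 were at 18.2 and 12.6 CPM per kb. In all, 12 members had a mean above 10 CPM per kb, and Abcb1b with 6.79 CPM per kb was not among them. With the length of the longest transcript in place of all exons, 17 members passed that level. Abcb1b, at 12.6 CPM per kb, was then among them, and Abcg2 moved to 35.2 CPM per kb.

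**Figure D1:**
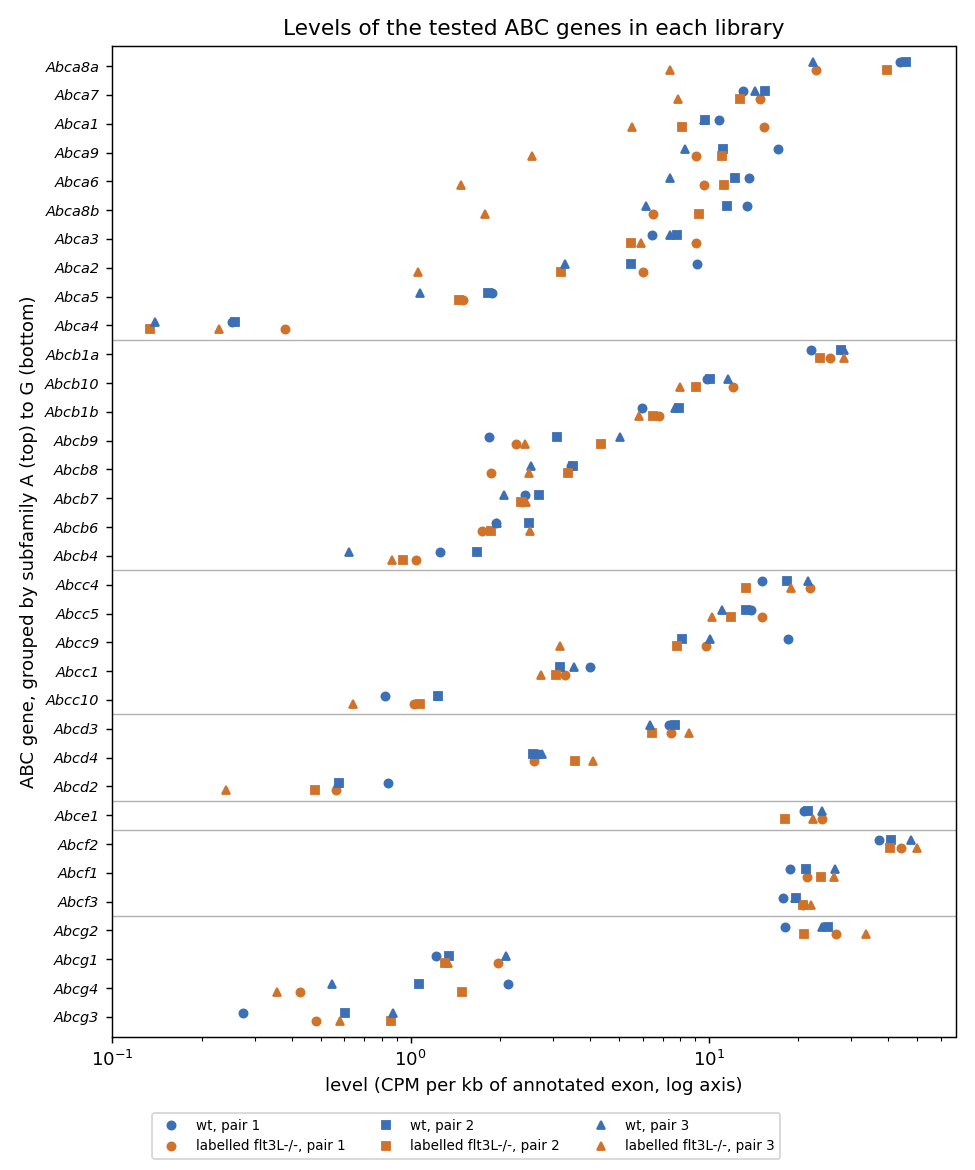
Level of the tested ABC genes, all but 1 of the 35, in each of the 6 libraries, in CPM per kb of annotated exon on a log axis, grouped by subfamily. Blue marks are wt, orange marks the libraries labelled flt3L-/-, and the shape gives the pair. Abcf2 has the highest mean, 43.4 CPM per kb, and among the wide rows are Abca8a, Abca9, Abca6, Abca8b, Abca2, Abcc9 and Abcg4, where the library labelled flt3L-/- of pair 3 is lowest.

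Together the 3 pumps gave 16.5% ± 3.24 (SD, n = 6) of the summed ABC signal per kb. Their share was 12.5%, 16.0% and 16.9% in wt and 16.3%, 15.0% and 22.3% in the libraries labelled flt3L-/-. Subfamily A varied more. It held 35.1%, 31.8% and 22.5% in wt and 26.3%, 30.1% and 11.7% in the libraries labelled flt3L-/-, and the lowest share of subfamily A and the highest share of the pumps fell in the same library. That library also had the lowest summed ABC level, 305 CPM per kb against 341 to 381 in the others. Subfamily F held 20.04% to 32.3%, with the highest share in that library too.

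**Figure D2:**
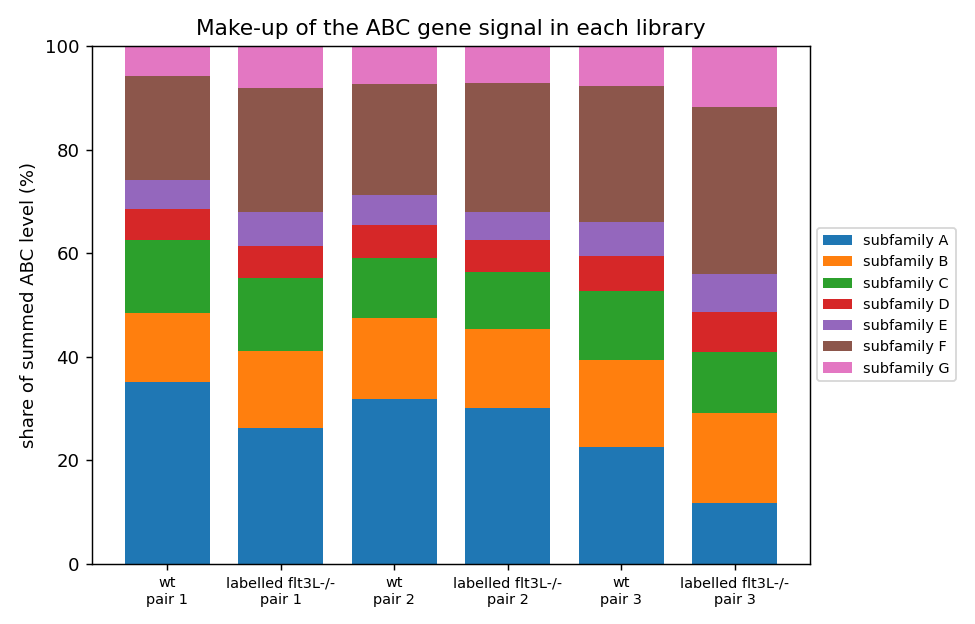
Share of each ABC subfamily in the summed CPM per kb of all 50 members, in percent, 1 stacked bar per library. Subfamily A takes 35.1% in the wt library of pair 1 and 11.7% in the library labelled flt3L-/- of pair 3, and subfamily F takes 20.04% and 32.3% there.

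The family as a whole was then compared between the groups, to see whether loss of the ligand went with other transporter transcripts. Of the 50 members, 35 passed the filter on low counts and were tested. No member had an adjusted p under 0.05 in edgeR's quasi-likelihood test, where 0% of the 13475 tested genes did, and the adjusted p-values of the members were 0.973 or higher. The paper reports genes under that threshold from the same kind of test, filter and date covariate, with no ABC gene listed among them. Those calls were not reproduced by the fit used here, and the reason was not tested. In DESeq2 0.156% of all genes were called and none of the members was. At an unadjusted p under 0.05, 4 of the 35 stood out in edgeR, beside 3.59% of all genes, and all 4 had lower levels in the libraries labelled flt3L-/-, beside 2.49% of all genes, while none was higher, beside 1.11% of all genes. They were Abca2, Abca8a, Abca8b and Abcc9. An estimate below 0 was found for 26 of the 35 members, beside 50% of all genes, and the median log2 difference of the tested members was -0.12 while that of all genes was -0.00. The level was lower in 3 of 3 pairs for 9 members, beside 11.5% of all genes, and higher in 3 of 3 pairs for 1, beside 14.2% of all genes. The 3 libraries of each group did not overlap for 2 members, Abcd2 and Abcf3, which is 5.71% beside 6.45% of all genes. With a fit without the pairing no member had an unadjusted p under 0.05, and with pair 1, 2 or 3 left out there were 1, 7 and 1. The shares of all genes in those fits are not given here, so these counts only show how far the number moved.

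**Figure D3:**
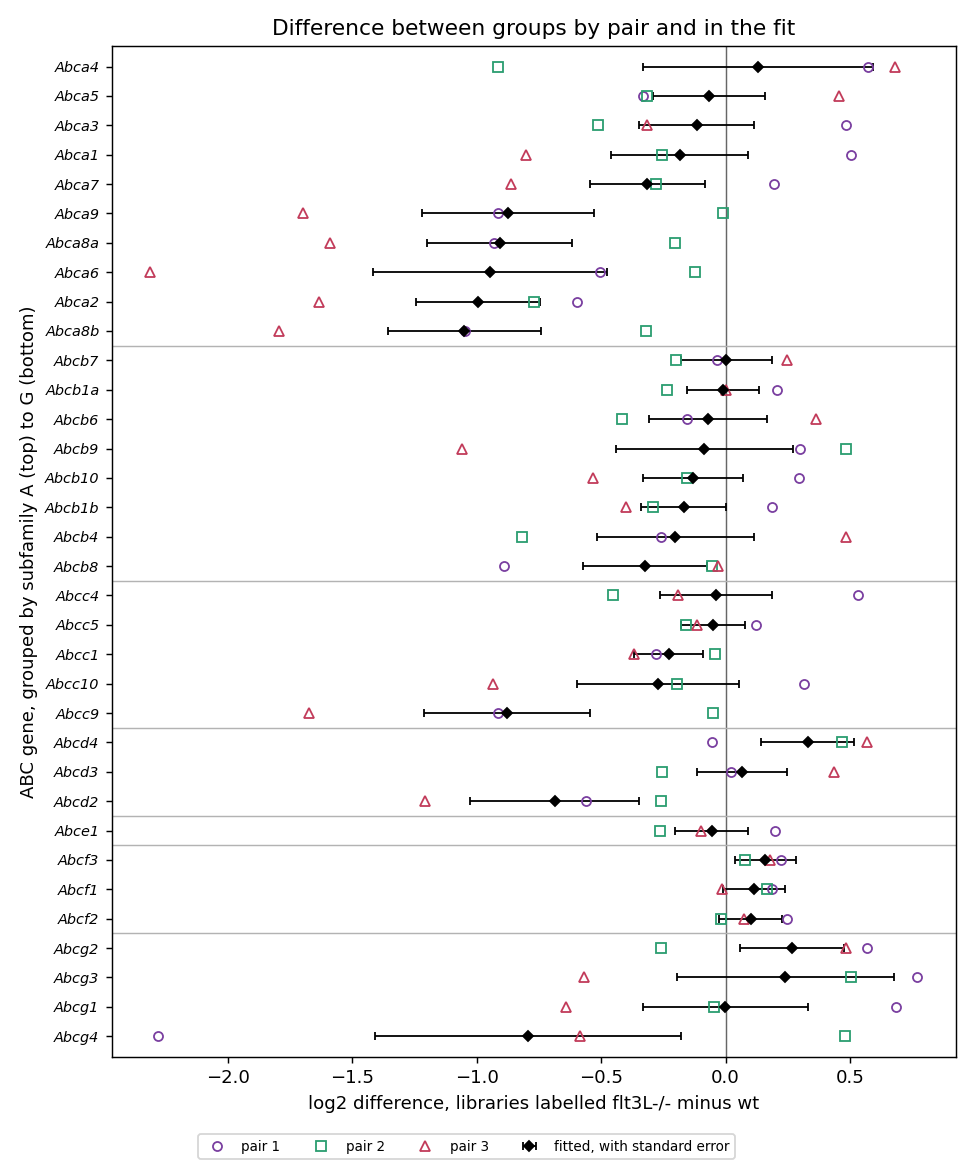
Log2 difference of the tested ABC genes, all but 1 of the 35, libraries labelled flt3L-/- over wt, as the fitted value with its standard error (black) and as the value of each of the 3 pairs (open marks). Of subfamily A, 9 of 10 fitted values lie left of 0, beside 50% of all genes. The pumps Abcg2, Abcb1a and Abcb1b have fitted values of 0.27, -0.01 and -0.17 with pairs on both sides of 0.

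Of the 10 tested members of subfamily A, 9 had an estimate below 0, beside 50% of all genes. Their median was -0.59 on the log2 scale over all 10, and several of the lowest sit together in the genome. On chromosome 11 the genes Abca8b, Abca8a, Abca9, Abca6 and Abca5 stand head to tail on the minus strand from base 109932190 to 110337716, 4770 to 29788 bases apart. They encode related lipid transporters whose substrates are less well known than that of Abca1. The windows around their annotated starts are shown because the first 4 of these neighbours were lowest in the same library and the last was not. The 300 bases lie mostly before the start and end shortly after it, are read from RefSeq on GRCm38.p6 in the direction of the gene, and have each CpG, a C followed by a G, in capitals. Abca6 has no entry there. The windows are chr11:109995796-109996095 for Abca8b, chr11:110095888-110096187 for Abca8a, chr11:110168104-110168403 for Abca9 and chr11:110337667-110337966 for Abca5.
Abca8b: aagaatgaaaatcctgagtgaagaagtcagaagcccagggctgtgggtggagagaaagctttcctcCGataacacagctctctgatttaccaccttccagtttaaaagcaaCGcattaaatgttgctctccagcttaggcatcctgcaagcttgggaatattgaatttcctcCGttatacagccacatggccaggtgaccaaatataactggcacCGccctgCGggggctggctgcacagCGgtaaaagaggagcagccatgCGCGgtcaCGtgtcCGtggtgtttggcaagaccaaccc
Abca8a: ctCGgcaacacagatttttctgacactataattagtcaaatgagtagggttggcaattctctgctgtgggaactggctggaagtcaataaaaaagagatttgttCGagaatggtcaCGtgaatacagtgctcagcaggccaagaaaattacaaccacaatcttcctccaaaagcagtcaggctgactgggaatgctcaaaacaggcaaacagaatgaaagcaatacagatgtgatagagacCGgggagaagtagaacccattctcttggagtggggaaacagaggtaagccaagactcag
Abca9: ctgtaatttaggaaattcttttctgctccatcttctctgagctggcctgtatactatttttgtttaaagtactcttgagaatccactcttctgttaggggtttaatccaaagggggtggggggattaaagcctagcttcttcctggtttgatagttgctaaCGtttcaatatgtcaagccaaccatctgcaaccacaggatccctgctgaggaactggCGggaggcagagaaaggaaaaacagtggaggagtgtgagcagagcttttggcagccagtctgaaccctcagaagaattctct
Abca5: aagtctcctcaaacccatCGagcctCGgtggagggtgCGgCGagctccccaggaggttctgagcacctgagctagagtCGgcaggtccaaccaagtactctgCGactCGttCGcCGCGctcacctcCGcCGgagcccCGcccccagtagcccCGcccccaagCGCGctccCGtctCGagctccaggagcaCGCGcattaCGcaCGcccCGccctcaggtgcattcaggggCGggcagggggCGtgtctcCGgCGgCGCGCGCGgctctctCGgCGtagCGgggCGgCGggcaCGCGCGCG

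These windows hold 10 CpG in Abca8b, 4 in Abca8a, 2 in Abca9 and 40 in Abca5. The median of the 32851 mouse windows of this length was 7 CpG, 38.0% of them had 4 or fewer, and 3.91% had 40 or more. The GC box, GGGCGG on either strand, occurs in the windows of Abca8b and Abca5 and in 35.7% of all windows. These counts describe the sequence and say nothing of which factor acts there.

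Abca8a was at 274, 287 and 140 CPM in wt and at 144, 249 and 46.4 CPM in those labelled flt3L-/-. It was lower in all 3 pairs, by 0.20 in pair 2 and 1.59 in pair 3 on the log2 scale, but the groups overlapped because the wt library of pair 3 was lower than both other wt libraries. The fit gave -0.91 ± 0.29 (adjusted p = 0.973, edgeR's quasi-likelihood test). Abca8b, also lower in all 3 pairs, was at 99.6, 85.6 and 45.9 CPM in wt and at 48.2, 68.6 and 13.2 CPM in those labelled flt3L-/-. Its log2 difference was -1.05 ± 0.31 (adjusted p = 0.973, same test). Abca9 was at 138, 89.6 and 66.8 CPM in wt and at 72.9, 88.9 and 20.5 CPM in those labelled flt3L-/-, a log2 difference of -0.87 ± 0.35. Abca6 was at 73.8, 66.0 and 39.96 CPM in wt and at 52.0, 60.6 and 7.99 CPM in those labelled flt3L-/-, a log2 difference of -0.95 ± 0.47. All 4 were lowest in the library labelled flt3L-/- of pair 3, and pair 2 showed the smallest difference in each. Without pair 3 the log2 differences were -0.57 for Abca8a, -0.68 for Abca8b, -0.46 for Abca9 and -0.31 for Abca6, and without pair 2 they were -1.28, -1.44, -1.33 and -1.42. Abca5, the fifth gene of the row, which was named after its values had been seen, was at 21.5, 20.8 and 12.3 CPM in wt and at 17.1, 16.7 and 16.8 CPM in those labelled flt3L-/-. It was not lowest in that library, and its log2 difference was -0.07 ± 0.23. The difference between Abca5 and its neighbours was not tested.

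The summed level of Abca6, Abca8a, Abca8b and Abca9 was 585, 528 and 293 CPM in wt and 317, 467 and 88.1 CPM in those labelled flt3L-/-. The fibroblast marker sum given above was also lowest in that last library and also close to equal within pair 2. Per 1000 fibroblast marker counts, Abca8a was at 15.2, 25.9 and 18.5 in wt and at 18.6, 21.5 and 12.8 in the libraries labelled flt3L-/-, a narrower range than its CPM, and higher in pair 1 in place of lower. Over the 6 libraries this ratio ran from 3.64 to 7.73 for Abca8b, 5.67 to 9.44 for Abca9 and 2.21 to 6.73 for Abca6. Per 1000 endothelial marker counts Abca8a ran from 5.17 to 36.5. Of the 8 fibroblast markers, Col1a1, Col1a2 and Col3a1 had an unadjusted p under 0.05 and were lower, and none passed adjustment. The part of the fibroblast content in these 4 transporters was not tested.

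**Figure D4:**
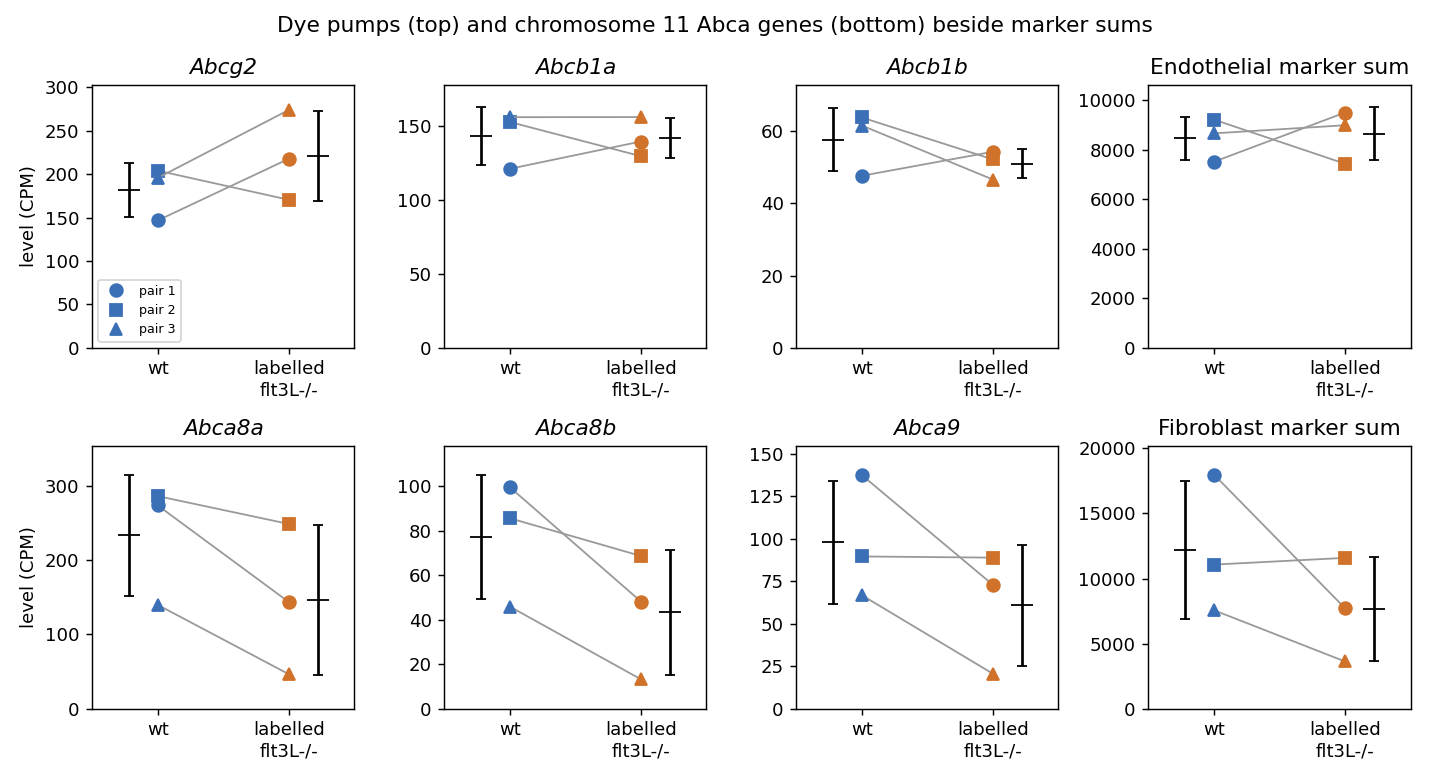
Level in CPM, on axes from 0, of the 3 dye efflux pumps with the endothelial marker sum (top) and of Abca8a, Abca8b and Abca9 with the fibroblast marker sum (bottom), 1 point per library, with lines that join a pair and bars for the mean and SD of each group. The pumps have lines in both directions, while Abca8a, Abca8b and Abca9 are lowest in the library labelled flt3L-/- of pair 3, at 46.4, 13.2 and 20.5 CPM, where the fibroblast sum is 3624 CPM.

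Abca2, a lipid transporter of endosomes and lysosomes, had the smallest unadjusted p of the family. It was at 76.3, 45.7 and 27.6 CPM in wt and at 50.4, 26.7 and 8.83 CPM in those labelled flt3L-/-. Each pair was lower, by 0.60, 0.77 and 1.63 on the log2 scale, yet the groups overlapped because the level was also lower on each later date in both. The fitted difference was -0.996 ± 0.25 (adjusted p = 0.973, edgeR's quasi-likelihood test), and it kept its direction with any pair left out, from -1.20 to -0.69. Abcc9, the sulfonylurea receptor subunit of ATP-sensitive potassium channels in vascular mural cells, was at 154, 67.9 and 84.6 CPM in wt and at 81.7, 65.6 and 26.5 CPM in those labelled flt3L-/-. Its log2 difference was -0.88 ± 0.33 (adjusted p = 0.973, same test) and moved from -1.31 to -0.48 with a pair left out. Kcnj8, the pore subunit that assembles with it, was at 23.4, 20.7 and 39.4 CPM in wt and at 18.4, 32.0 and 11.6 CPM in those labelled flt3L-/-. Like Abcc9 it was lower in pairs 1 and 3 and lowest in the library labelled flt3L-/- of pair 3, but it was higher in pair 2, and its log2 difference was -0.48 ± 0.49. Kcnj11, the other pore subunit, reached at most 0.396 CPM. The sum of pericyte and smooth muscle markers was highest, 754 CPM, in the library in which Abcc9 was highest. It was lowest, 264 CPM, in that in which Abcc9 was lowest. The fibroblast marker sum was highest and lowest in the same libraries, at 17996 and 3624 CPM. Per 1000 fibroblast marker counts, Abcc9 was at 8.56, 6.14 and 11.2 in wt and at 10.6, 5.66 and 7.31 in those labelled flt3L-/-. Per 1000 endothelial marker counts it ran from 2.95 to 20.5. The part of these cell types was not tested.

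The sterol and phospholipid exporters had overlapping groups. Abca1, which loads cholesterol onto apolipoprotein A-I, was at 112, 100 and 100 CPM in wt and at 159, 84.2 and 57.4 CPM in those labelled flt3L-/-. The wt values lay close together while the others spread on both sides of them, and the log2 difference of -0.18 ± 0.28 turned to 0.13 without pair 3. Abca7, a close relative linked to phospholipid transport and phagocytosis, was at 87.9, 104 and 96.7 CPM in wt and at 101, 85.7 and 53.2 CPM in those labelled flt3L-/-. Its log2 difference was -0.31 ± 0.23. Abcg1, which passes cholesterol to high-density lipoprotein, was at 8.86, 9.86 and 15.3 CPM in wt and at 14.3, 9.55 and 9.78 CPM in those labelled flt3L-/-, with a log2 difference of -0.00 ± 0.33. Abcg4, its relative best known from brain, ranged from 1.86 to 11.1 CPM and had the widest spread of the tested members, with pair differences from -2.28 to 0.48 on the log2 scale. Of 15 genes of sterol regulation and efflux, among them Nr1h3 and Srebf2, 14 were tested, none passed the adjusted or the unadjusted threshold, and the median log2 difference was 0.07.

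The exporters of organic anions and glutathione conjugates in subfamily C were steadier than Abcc9. Abcc4, which exports cyclic nucleotides and prostaglandins, was at 96.8, 117 and 138 CPM in wt and at 140, 85.3 and 120 CPM in those labelled flt3L-/-, with a log2 difference of -0.04 ± 0.22. Abcc5, a related exporter of cyclic nucleotides, was at 148, 142 and 119 CPM in wt and at 161, 127 and 110 CPM in those labelled flt3L-/-, with a log2 difference of -0.05 ± 0.13. The groups overlapped in both. All 5 tested members of the subfamily had an estimate below 0, beside 50% of all genes, with a median of -0.23. Of them, 1, Abcc9, had an unadjusted p under 0.05 in edgeR's quasi-likelihood test, beside 3.59% of all genes. Of 7 genes of glutathione conjugation tested beside them, none passed the adjusted or the unadjusted threshold.

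Among the transporters of mitochondria, lysosomes and peroxisomes the groups overlapped for every member described here except Abcd2. Abcb10, a mitochondrial transporter needed for haem synthesis in red cell precursors, was at 42.4, 43.4 and 50.0 CPM in wt and at 52.0, 38.9 and 34.6 CPM in those labelled flt3L-/-. Its log2 difference was -0.13 ± 0.20, with overlapping groups. Abcd3, a major protein of the peroxisomal membrane, lay between 41.9 and 56.7 CPM, and its log2 difference was 0.07 ± 0.18. Abcd4, which works in the lysosomal release of vitamin B12, was at 21.5, 20.6 and 22.0 CPM in wt and at 20.7, 28.5 and 32.7 CPM in those labelled flt3L-/-. That was higher in pairs 2 and 3, with a log2 difference of 0.33 ± 0.19. Abcd2, a peroxisomal fatty acid transporter with low levels here and named after its values had been seen, was at 4.98, 3.41 and 3.39 CPM in wt and at 3.35, 2.84 and 1.42 CPM in those labelled flt3L-/-. The lowest wt value and the highest of the others nearly touched, and the log2 difference was -0.69 ± 0.34. In Abcb6, a mitochondrial porphyrin transporter, 55.2% of exon bases are shared with Gm29253, so its values, between 9.25 and 13.3 CPM, are uncertain. None of 6 peroxisome partner genes passed the adjusted or the unadjusted threshold.

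The ABC proteins without a membrane domain were among the steadiest. Abce1, which splits ribosomes after translation ends, was at 126, 130 and 144 CPM in wt and at 144, 108 and 134 CPM in those labelled flt3L-/-, with a log2 difference of -0.05 ± 0.15. Abcf1, which acts in translation initiation, was at 82.8, 93.7 and 117 CPM in wt and at 94.2, 105 and 116 CPM in those labelled flt3L-/-. Abcf2 was at 96.1, 105 and 122 CPM in wt and at 114, 104 and 129 CPM in those labelled flt3L-/-. Their differences on the log2 scale were 0.11 ± 0.12 and 0.10 ± 0.13. Abcf3, the third of this kind and a partner in the translation machinery, was at 63.3, 69.8 and 69.5 CPM in wt and at 73.9, 73.7 and 78.6 CPM in those labelled flt3L-/-. It was the only tested member higher in 3 of 3 pairs, and its groups did not overlap, but the log2 difference was 0.16 ± 0.12 with an adjusted p of 0.973 in edgeR's quasi-likelihood test. The relative spread over the 6 libraries was 7.27% for Abcf3 and 10.3% for Abce1, against 21.7% for Abcg2 and 50.0% for Abca8a. None of 5 partner genes of ribosome recycling and initiation passed the adjusted or the unadjusted threshold.

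ABC transporters with symbols outside the rule were looked at for completeness. Tap1, which with Tap2 carries peptides to class I molecules, was at 159, 153 and 152 CPM in wt and at 157, 216 and 298 CPM in those labelled flt3L-/-, a log2 difference of 0.48 ± 0.22 (adjusted p = 0.973, edgeR's quasi-likelihood test). Tap2 was at 269, 319 and 314 CPM in wt and at 330, 321 and 440 CPM in those labelled flt3L-/-, a log2 difference of 0.26 ± 0.15. It was higher in all 3 pairs, like 14.2% of all genes, and its groups did not overlap, like those of 6.45% of all genes. Neither Tap1 nor Tap2 passed the unadjusted threshold. Of 19 genes reported to regulate efflux pumps, among them Ahr, Nfe2l2, Hif1a and Akt1, 18 were tested, none passed the adjusted or the unadjusted threshold, and the median log2 difference was -0.03.

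Of the 15 members that were not tested, none exceeded 1.01 CPM in any library, the level of Abcc3 in the wt library of pair 3. They are Abca12, Abca13, Abca14, Abca15, Abca16 and Abca17 in subfamily A, Abcb5 and Abcb11 in B, Abcc2, Abcc3, Abcc6, Abcc8 and Abcc12 in C, and Abcg5 and Abcg8 in G. Many of these are known from liver, intestine, skin, pancreas or testis. Abca15, Abcb11, Abcg5 and Abcg8 stayed under 3 counts in all 6 libraries, and Abcg8 had no count at all, so they were not detectable at this depth.

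Since each date held 1 library of each group, the spread between dates was tested with the group held fixed. No member had an adjusted p under 0.05 in edgeR's quasi-likelihood test, where 0% of all tested genes did. DESeq2 called 3 members, Abca2 with an adjusted p of 0.000122, Abca8a with 0.00463 and Abca8b with 0.0136, beside 2.99% of all genes. At an unadjusted p under 0.05 in edgeR there were 4 of 35 members, Abca2, Abca8a, Abca8b and Abca9, beside 8.28% of all genes. In these, the third date was lower than the first by 1.96, 1.26, 1.44 and 1.37 on the log2 scale. Of these 4, 3 are also among the 4 with an unadjusted genotype p under 0.05. Both p-values come from the same fit with the same residual spread, so this overlap is not an independent result. For the pumps, the third date differed from the first by 0.37 for Abcg2, 0.26 for Abcb1a and 0.07 for Abcb1b on the log2 scale.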

How the data were processed

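RNA of the cardiac SP of wt and flt3L-/- mice was sequenced by the authors as single, unstranded reads of 81 bases from SMART-Seq v4 libraries, mapped with STAR 2.5.2a to mm10 with at most 10 hits per read, equally good hits being assigned at random. The deposited values are counts of reads that start in an exon of a gene (Ensembl release 88), without normalization.

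Protein-coding genes with over 1 CPM in at least 2 of the 6 libraries were kept (13475 genes). They were tested in edgeR 4.0.16 on R 4.3.3 with TMM factors, glmQLFit and glmQLFTest (legacy = TRUE) and the sorting date as covariate, and p-values were Benjamini-Hochberg adjusted over all of them. The common dispersion was 0.0978, with 2 residual and 2.79 prior degrees of freedom. The pairing was taken from the labelled sorting dates. After removal of group means, same-date libraries correlated at 0.104 to 0.180 across genes, others at -0.354 to 0.247. These ranges overlap, so the correlations do not set the pairs apart. Pair values used a prior count of 2. Exons and biotypes came from GENCODE release 21 on GRCm38, promoter windows from RefSeq, where 38 of the 50 members matched. DESeq2 1.42.0, other scalings, filters, lengths and left-out pairs were alternatives. The scripts were tested on simulated counts with less spread than these data and no date effect. That checks the code and not the power to find differences here. Named with values were the pumps, the 3 members of each subfamily highest per kb, the 5 with the smallest genotype p and the 5 with the smallest date p. The members and lists were chosen with earlier results of these data known. The values of 1 named member are not reported here.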

Additional observations from a re-analysis of the deposited data

How the results depend on the processing

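No ABC gene was called between the groups under any of the alternatives run, which were other size factors, library size alone, DESeq2, other filters, all biotypes, legacy = FALSE, no replicate block and each pair left out. The count of members with an unadjusted genotype p under 0.05 was 4 with the pairing by date as a block and 0 with no replicate block, and 1 to 7 with a pair left out. DESeq2 called 21 of all genes between the groups, 403 between the dates, and 3 ABC genes between the dates, against 0 each in edgeR. The count of members with an unadjusted date p under 0.05 was 4, was 0 with no genotype term, and was 2 to 6 with a pair left out. Outside the main fit, the shares of all genes at the unadjusted thresholds are not given, so these counts have no comparison. Among all genes 0 to 112 were called by date with a pair left out. The causes were not tested. Of 184 log2 differences of the 23 named genes under other settings, 181 kept their direction; the 3 others belonged to Abcg1, at 0.00015 with DESeq2 factors, 0.00014 in DESeq2 and 0.0046 with no filter. Of 69 values with a pair left out, 60 kept it. The 9 others lay in Abca1 (-0.53 to 0.13), Abcb10 (-0.35 to 0.069), Abcb1a (-0.12 to 0.081), Abcc4 (-0.32 to 0.15), Abcd3 (-0.12 to 0.21), Abce1 (-0.18 to 0.029) and Abcg1 (-0.35 to 0.32). With 3 pairs and 2 residual degrees of freedom, differences inside the intervals given were not resolved, and members under 3 counts were not detectable.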
